A study of Mus musculus with 6 samples.

Results

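The HOX genes are described here in mouse colon after lenvatinib or DMSO. All rows of the deposited expression table whose symbol is Hox followed by the cluster letter a, b, c or d and a paralog number were taken, which gave 36 of 25339 genes. They were 11 genes of cluster A, 9 of cluster B, 7 of cluster C and 9 of cluster D, with paralog numbers between 1 and 13. Hoxb1, Hoxc12 and Hoxc13 were not analysed here.

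The tested libraries came from colon of mice that received lenvatinib, a drug that blocks receptor tyrosine kinases such as those for VEGF, FGF and PDGF (3 libraries). The controls came from colon of mice that received DMSO, a solvent (3 libraries). Strain, sex, age, dose, duration, any other treatment of both groups and the stretch of colon taken are not stated in the labels. The series, by its title, is about colitis and the traffic of B cells through MAdCAM-1, a vascular address molecule of the gut.

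HOX genes encode transcription factors that bind DNA through a homeodomain and that give cells their address along the body from head to tail. In each cluster the genes lie in the order of their paralog numbers, and low numbers are switched on further forward and high numbers further back. In the gut the nested HOX pattern is laid down in the embryo, mainly in the mesenchyme, and part of it persists in the adult. Genes of group 13 mark the hindgut and its most distal part.

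Levels are given in FPKM, fragments per kilobase of gene scaled to each library's depth, a unit that corrects levels for gene length. The gene length that the deposited FPKM imply was 0.37 (Hoxa9) to 2.6 (Hoxa6) times the GENCODE M21 exon length. The order of genes and the shares below therefore depend on the authors' gene models. The ratio of a gene's FPKM between libraries does not, but the 1 FPKM filter and the log2(FPKM + 1) scale of the test do. With GENCODE lengths Hoxa9 averaged 0.918 FPKM and Hoxa2 0.526 FPKM, under that filter, and Hoxa3 averaged 1.58 FPKM, above it. The values of each gene were whole multiples of the value of a single read, and the recovered totals were 37660528 to 39287783 reads per library. Libraries 2 and 3 of each group were close to each other (SD of the log2 difference over tested genes 0.11 for lenvatinib 2 and 3 and 0.10 for DMSO 2 and 3), against 0.29 to 0.48 for the other pairs. DMSO 1 stood apart in sex-linked transcripts: Ddx3y, on the Y chromosome, was 6.54 FPKM there and 0 in the other 5 libraries, and Xist was 0.00147 FPKM there and 15.9 to 19.8 FPKM elsewhere. By these transcripts DMSO 1 read as male and the other 5 libraries as female. The DMSO group thus mixed sexes and the lenvatinib group did not. The tissue label was checked by markers: Car1, a carbonic anhydrase of colon epithelium, had 7590 to 10360 FPKM in lenvatinib libraries and 7823 to 9567 FPKM in DMSO libraries. Insl5, a hormone of distal colon endocrine cells, reached at most 0.0671 FPKM with lenvatinib and 0.0898 FPKM with DMSO. Small intestinal genes, taken up below, differed between the groups. Fabp6 had 148 to 161 FPKM with lenvatinib and 1.45 to 2.28 FPKM with DMSO. Defa24 had 94.8 to 138.9 FPKM with lenvatinib and at most 1.131 FPKM with DMSO. Whether both groups hold the same stretch of gut was not tested.

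A compact set of genes of clusters A and B made up most of the HOX message. Of the 36 genes, 20 averaged 1 FPKM or more across all libraries and were tested, 8 lay between 0.1 and 1 FPKM and 8 lay below 0.1 FPKM. Tested genes numbered 7 of 11 in cluster A, 8 of 9 in cluster B, 1 of 7 in cluster C and 4 of 9 in cluster D. Hoxb6 and Hoxb9 stood highest and their library ranges overlapped. Hoxa10 came next, below both and above Hoxb7 and Hoxb8, which overlapped each other. With GENCODE exon lengths Hoxb9 averaged 25.1 FPKM, Hoxb6 23.3 FPKM and Hoxa6 9.42 FPKM over the libraries, Hoxb9 and Hoxb6 changed places, Hoxa10 overlapped Hoxb7 and Hoxa6 came level with Hoxb8. At the deposited lengths, from Hoxa7 downward through Hoxb5, Hoxa5 and Hoxa6 the ranges of neighbours in the order overlapped. Hoxb6, Hoxb9 and Hoxa10 together held 51.0 ± 2.46% of the summed HOX FPKM with lenvatinib and 50.4 ± 1.47% with DMSO (SD, n = 3 each). With GENCODE lengths they held 45.9 ± 2.63% with lenvatinib and 45.25 ± 1.46% with DMSO.

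**Figure D1:**
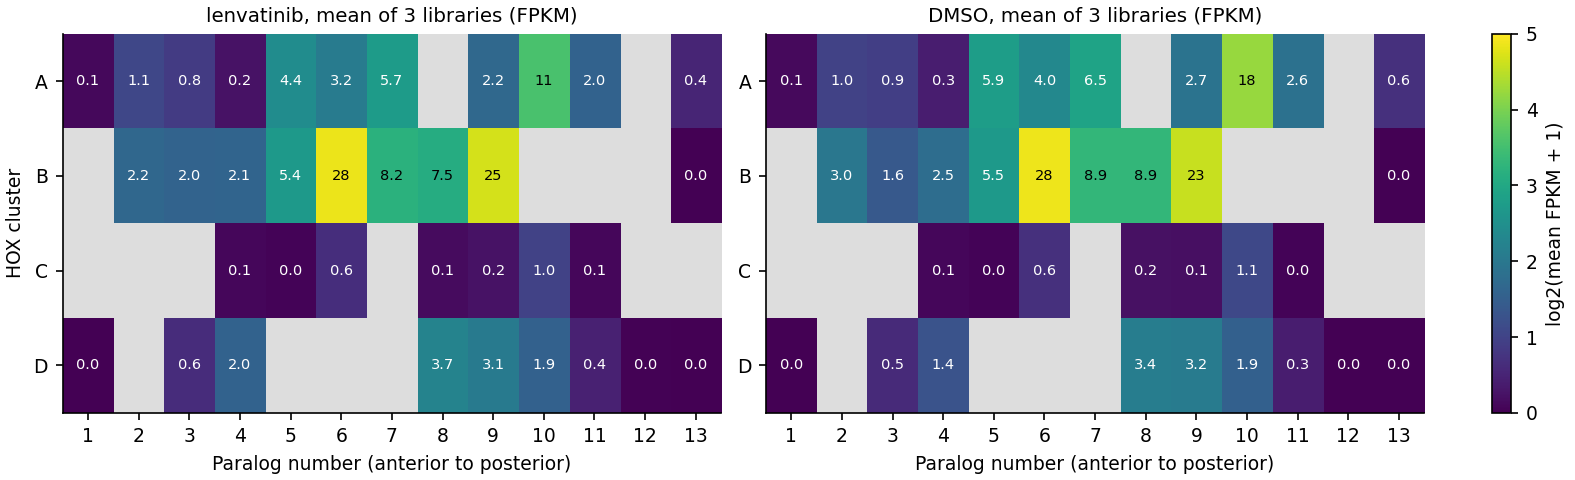
Mean level (FPKM, colour on a log scale) of each HOX gene by cluster (rows) and paralog number (columns), for lenvatinib and for DMSO libraries (3 each). In both maps the highest cells are Hoxb6, Hoxb9 and Hoxa10, and the cells of paralog number 13 lie below 1 FPKM.

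Promoters are shown for Hoxa10, Hoxb8 and Hoxd4, the 3 genes with the lowest unadjusted p in the comparison, so that the caudal motif can be read beside their values. The windows are RefSeq promoters on GRCm38.p6, each of 300 bases, from 250 before to 50 after a gene start, written 5′ to 3′ on the gene's strand. Capitals mark TTTATNG, the letters bound by CDX and posterior HOX proteins, searched on both strands, so that a minus-strand match reads CNATAAA. The first Hoxa10 window is chr6:52234890-52235189 and the other, at an upstream start, is chr6:52240805-52241104, both on the minus strand. The Hoxb8 window is chr11:96281655-96281954 and the Hoxd4 window is chr2:74721728-74722027, both on the plus strand.
Hoxa10 downstream start: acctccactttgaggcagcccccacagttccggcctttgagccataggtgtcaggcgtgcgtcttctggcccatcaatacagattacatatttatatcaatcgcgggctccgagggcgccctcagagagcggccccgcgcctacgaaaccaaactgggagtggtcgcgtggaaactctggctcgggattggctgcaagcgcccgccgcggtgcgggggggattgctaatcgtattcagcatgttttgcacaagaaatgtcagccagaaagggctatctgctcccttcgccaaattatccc
Hoxa10 upstream start: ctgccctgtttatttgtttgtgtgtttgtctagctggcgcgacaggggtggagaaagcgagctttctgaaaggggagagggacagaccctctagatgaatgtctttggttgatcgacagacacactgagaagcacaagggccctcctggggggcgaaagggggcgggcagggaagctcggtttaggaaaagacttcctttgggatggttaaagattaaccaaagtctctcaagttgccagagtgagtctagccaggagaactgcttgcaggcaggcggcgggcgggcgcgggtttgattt
Hoxb8: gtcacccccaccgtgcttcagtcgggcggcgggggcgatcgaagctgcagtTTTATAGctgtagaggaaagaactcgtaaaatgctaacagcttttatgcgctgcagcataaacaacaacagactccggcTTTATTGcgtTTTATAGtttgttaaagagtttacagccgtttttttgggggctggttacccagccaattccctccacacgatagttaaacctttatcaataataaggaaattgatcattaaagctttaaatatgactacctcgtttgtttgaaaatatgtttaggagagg
Hoxd4: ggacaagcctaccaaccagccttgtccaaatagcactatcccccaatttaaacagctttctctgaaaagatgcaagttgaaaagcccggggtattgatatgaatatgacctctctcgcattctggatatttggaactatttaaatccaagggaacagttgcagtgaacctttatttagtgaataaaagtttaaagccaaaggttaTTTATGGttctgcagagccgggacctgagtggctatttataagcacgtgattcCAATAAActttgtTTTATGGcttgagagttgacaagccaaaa
Neither Hoxa10 window held the motif. The Hoxb8 window held it at positions 52, 131 and 141, counted from 1 at its 5′ end, and the Hoxd4 window at 206, 259 (minus strand) and 272. RefSeq windows were matched for 21 of the 36 genes, 23 windows in all, and 2 of these 23 (8.7%) held TTTATNG, against 10.9% of all 32851 promoters. AGGTCA, a nuclear receptor half-site, was in 7 of 23 HOX windows (30.4%) and 16.3% of all, and TGACAG, bound by MEIS and PKNOX cofactors, in 2 of 23 (8.7%) and 19.2% of all, also on both strands. These matches describe letters in the windows only.

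The comparison of lenvatinib with DMSO asked whether the HOX profile differed between the groups. No HOX gene passed the test: 0 of 20 tested genes had an adjusted p below 0.05 with limma on log2(FPKM + 1), against 2.03% of all 11774 genes tested (1.10% higher and 0.934% lower with lenvatinib). At an unadjusted p below 0.05 there were 5 of 20 (25%), against 22.0% of all genes. The groups did not overlap in 6 of 20 genes (30%), against 27.5% of all genes. Of these, 4 were lower with lenvatinib (Hoxa10, Hoxa11, Hoxb4 and Hoxb8, 20% against 17.5% of all genes) and 2 were higher (Hoxb3 and Hoxd4, 2 of 20 against 1178 of 11774 genes). The fold change was below 0 in 14 of 20 HOX genes (70%), against 63.9% of all genes, and its median was -0.10 on the log2 scale, against -0.07 over all genes. These shares lie near the background.

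**Figure D2:**
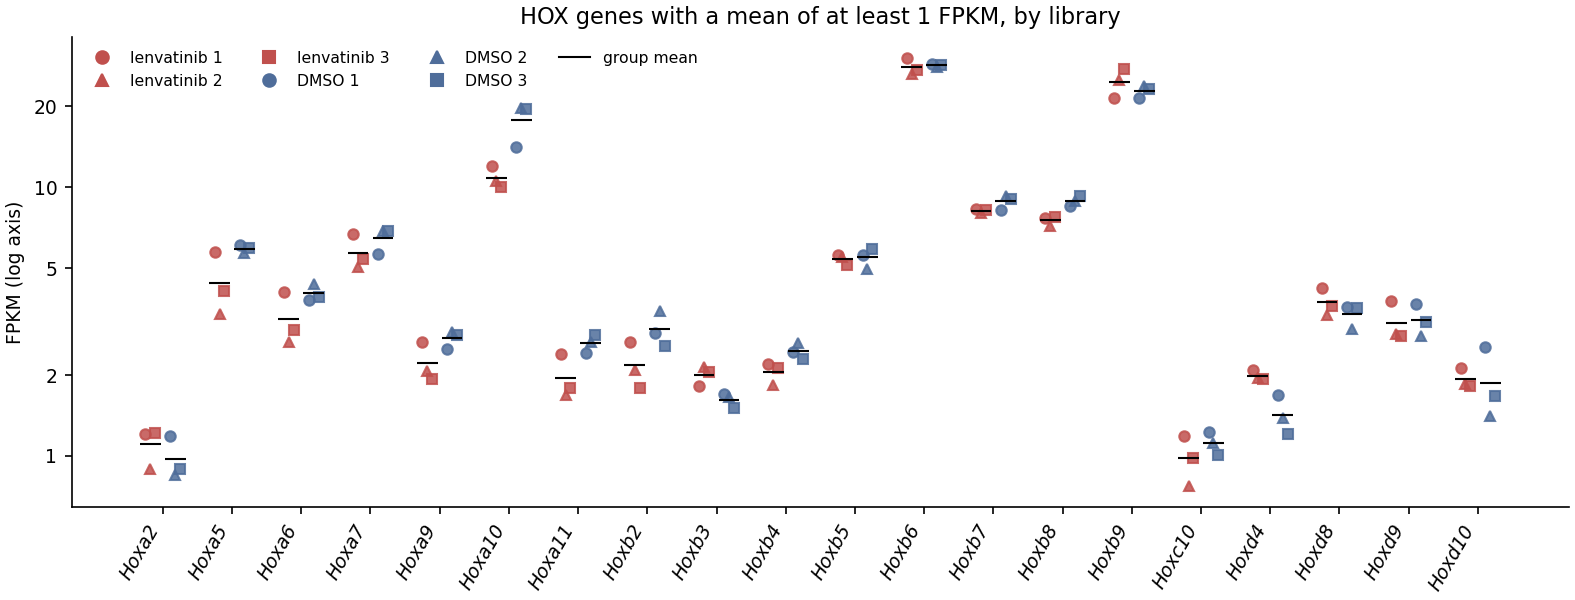
Level (FPKM, log axis) of each of the 20 tested HOX genes in every library, lenvatinib left of DMSO, ordered by cluster and paralog number. Hoxa10 shows the lenvatinib libraries at 10.02 to 11.95 FPKM and the DMSO libraries at 14.1 to 19.7 FPKM, while the points of Hoxb6 and Hoxb9 overlap.

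Cluster A, whose genes pattern limb, reproductive tract and gut, held the lowest p. Hoxa10, best known from uterus and hindlimb, had 11.95, 10.57 and 10.02 FPKM in lenvatinib 1 to 3, against 14.1, 19.7 and 19.5 FPKM in DMSO 1 to 3. Every lenvatinib library was below every DMSO library, and the lowest DMSO library was DMSO 1. The means were 10.8 ± 0.992 FPKM with lenvatinib and 17.8 ± 3.196 FPKM with DMSO (SD, n = 3 each). The log2 fold change was -0.65 (SE 0.141, 95% interval -0.99 to -0.31) with an unadjusted p of 0.00322, and it did not pass (limma adjusted p = 0.0838). An exact two-sided permutation test gave p = 0.1, the smallest that 3 against 3 allows, which any gene whose groups do not overlap gives. Without lenvatinib 1 the limma adjusted p was 0.0164, and without DMSO 1 it was 0.0263, while 38.0% and 2.27% of all genes passed in those fits. Leaving out lenvatinib 2, lenvatinib 3, DMSO 2 or DMSO 3 gave limma adjusted p of 0.301, 0.315, 0.310 and 0.317. With the replicate block it was 0.235, and with libraries 2 and 3 of each group averaged it was 0.895 (log2 fold change -0.54). In bulk tissue, fewer cells of a type and less RNA per cell cannot be told apart.

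Hoxa11, a kidney, limb and uterus gene, had 2.39, 1.68 and 1.79 FPKM in lenvatinib 1 to 3, against 2.42, 2.66 and 2.81 FPKM in DMSO 1 to 3. The groups were separated by the narrow gap between lenvatinib 1 and DMSO 1. Its log2 fold change was -0.30 (limma adjusted p = 0.197). Its exons share 35% of their bases with Hoxa11os, an antisense gene, and since the strand setting of the counting is not given, reads of the pair cannot be told apart. Hoxa11os itself had 2.29, 1.84 and 1.59 FPKM with lenvatinib, against 2.29, 3.50 and 2.33 FPKM with DMSO (limma adjusted p = 0.254).

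The remaining cluster A genes overlapped between groups. Hoxa5, which patterns lung and gut mesenchyme, had 5.73, 3.36 and 4.10 FPKM in lenvatinib 1 to 3, against 6.07, 5.67 and 5.95 FPKM in DMSO 1 to 3. Lenvatinib 1 lay inside the DMSO range and the other two lenvatinib libraries below it (log2 fold change -0.38, limma adjusted p = 0.232). Hoxa6 had 4.07, 2.65 and 2.94 FPKM with lenvatinib, against 3.82, 4.34 and 3.91 FPKM with DMSO (limma adjusted p = 0.287). Hoxa7, a gene of the trunk vertebrae, had 6.70, 5.04 and 5.38 FPKM with lenvatinib, against 5.65, 6.85 and 6.85 FPKM with DMSO (limma adjusted p = 0.444). In both genes lenvatinib 1 was the highest of its group and lay within the DMSO range. Hoxa7 shares 20.4% of its exon bases with the antisense gene Hoxaas3. Hoxa9, a regulator of blood progenitors, had 2.65, 2.08 and 1.93 FPKM with lenvatinib, against 2.51, 2.88 and 2.82 FPKM with DMSO (limma adjusted p = 0.272). Hoxa2, a hindbrain and pharyngeal arch gene, had 1.20, 0.892 and 1.22 FPKM with lenvatinib, against 1.18, 0.851 and 0.894 FPKM with DMSO (limma adjusted p = 0.623). Hoxa2 was the only tested cluster A gene with a fold change above 0, and the median log2 fold change of the 7 was -0.26.

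**Figure D3:**
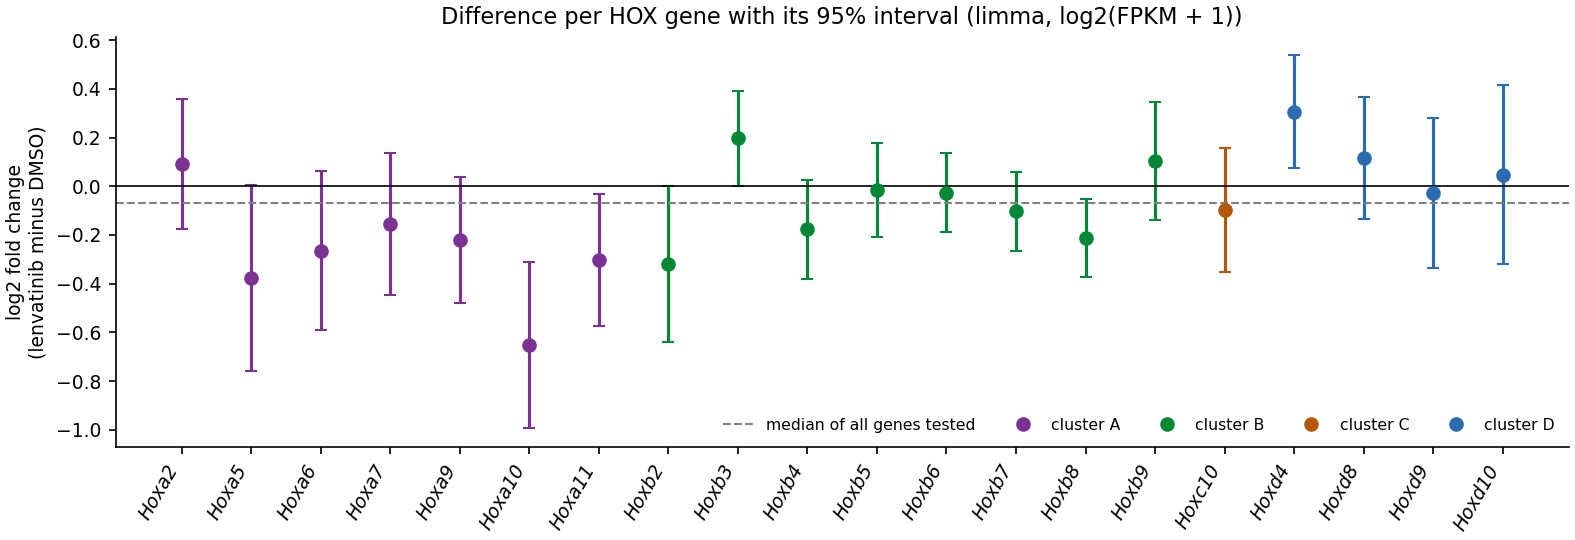
Log2 fold change (lenvatinib minus DMSO, log2(FPKM + 1)) of each tested HOX gene with its 95% limma interval, coloured by cluster. Hoxa10 lies lowest at -0.65 and Hoxd4 highest at 0.31, and none of the 20 passed the adjusted threshold.

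Cluster B carried the most HOX message, and the log2 ratio of its mean sums, lenvatinib over DMSO, was -0.03. Hoxb6 had 30.2, 26.3 and 27.2 FPKM in lenvatinib 1 to 3, against 28.6, 28.0 and 28.5 FPKM in DMSO 1 to 3, and its log2 fold change of -0.03 had an interval of -0.19 to 0.14 (limma adjusted p = 0.825). Hoxb9, a thoracic skeleton gene, had 21.4, 25.1 and 27.5 FPKM with lenvatinib, against 21.4, 23.7 and 23.2 FPKM with DMSO. Its log2 fold change of 0.10 had an interval of -0.14 to 0.35 (limma adjusted p = 0.538), so the groups of both leading genes overlapped.

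Hoxb8, which also marks a haematopoietic lineage, had 7.70, 7.14 and 7.77 FPKM with lenvatinib, against 8.496, 8.89 and 9.26 FPKM with DMSO. Its groups did not overlap, and its log2 fold change was -0.21 (SE 0.0659, limma adjusted p = 0.155). Hoxb4, known from blood stem cells, had 2.20, 1.84 and 2.13 FPKM with lenvatinib, against 2.43, 2.64 and 2.29 FPKM with DMSO (log2 fold change -0.18, limma adjusted p = 0.267). Its groups were likewise apart and lower with lenvatinib. Hoxb3, a hindbrain gene, lay the other way with 1.82, 2.14 and 2.06 FPKM with lenvatinib, against 1.70, 1.66 and 1.504 FPKM with DMSO (log2 fold change 0.20, limma adjusted p = 0.226). Hoxb3 shares 52.9% of its exon bases with the antisense gene Hoxb3os.

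The other cluster B genes overlapped. Hoxb2, a hindbrain gene, had 2.65, 2.09 and 1.79 FPKM with lenvatinib, against 2.86, 3.45 and 2.56 FPKM with DMSO (limma adjusted p = 0.229). Hoxb5, expressed in migrating enteric neural crest, had 5.59, 5.50 and 5.13 FPKM with lenvatinib, against 5.61, 4.97 and 5.89 FPKM with DMSO (limma adjusted p = 0.911). Hoxb7 had 8.26, 8.03 and 8.24 FPKM with lenvatinib, against 8.23, 9.30 and 9.07 FPKM with DMSO (limma adjusted p = 0.375). In each of the 3 at least 1 lenvatinib library lay within the DMSO range. Hoxb2 shares 27.3% of its exon bases with the antisense gene Hoxb3os.

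Clusters C and D were low. Hoxc10, a gene of lumbar motor neurons, was the only cluster C gene tested, with 1.19, 0.776 and 0.985 FPKM with lenvatinib, against 1.22, 1.12 and 1.01 FPKM with DMSO (limma adjusted p = 0.574). Hoxd4, a retinoic acid responsive hindbrain gene, had 2.08, 1.95 and 1.94 FPKM with lenvatinib, against 1.69, 1.39 and 1.20 FPKM with DMSO. Every lenvatinib library was above every DMSO library, with a log2 fold change of 0.31 (SE 0.0958, limma adjusted p = 0.157). Hoxd4 shares 13.2% of its exon bases with Hoxd3 and 11.8% with the antisense gene Hoxd3os1.

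Hoxd8, Hoxd9 and Hoxd10 overlapped between groups. Hoxd8 had 4.22, 3.34 and 3.62 FPKM with lenvatinib, against 3.58, 2.96 and 3.56 FPKM with DMSO (limma adjusted p = 0.503). Hoxd9 had 3.77, 2.84 and 2.79 FPKM with lenvatinib, against 3.67, 2.79 and 3.15 FPKM with DMSO (limma adjusted p = 0.904). Library 1 of each group was highest in both. Hoxd10, a hindlimb motor neuron gene, had 2.13, 1.86 and 1.83 FPKM with lenvatinib, against 2.54, 1.41 and 1.68 FPKM with DMSO (limma adjusted p = 0.863).

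The genes of paralog number 13, markers of the hindgut's far end, were low, and 2 of the 3 were at the floor of detection. Hoxa13, which patterns hindgut, limb and genital tract, had 0.495, 0.233 and 0.548 FPKM in lenvatinib 1 to 3, from 25, 12 and 28 reads, against 0.379, 0.728 and 0.721 FPKM in DMSO 1 to 3, from 19, 38 and 37 reads. The groups overlapped (exact two-sided permutation p = 0.3). Hoxb13, a gene of prostate and distal bowel, was 0 in every lenvatinib library and had 0.0184 FPKM in DMSO 2 alone; if that value is a single read, a count of 0 allows up to 0.0577 FPKM (3 reads). Hoxd13, needed for the anal sphincter and digits, had 0.01004 FPKM in lenvatinib 3 and 0.0102 FPKM in DMSO 1 and was 0 elsewhere. For Hoxb13 and Hoxd13 no difference could be detected at this depth. Over the 6 libraries, the tested genes closest to Hoxa13 by Pearson's r of log2(FPKM + 1) were Cul3 (0.98), Dleu2 (0.98), Acer3 (0.97), Zbtb9 (0.97) and Wdr53 (0.97), which is a description over few libraries.

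Among the 16 genes under 1 FPKM, Hoxa4 was the one whose groups did not overlap (1 of 16, against 12.7% of the 12177 genes above 0 with a mean below 1 FPKM). It had 0.239, 0.2004 and 0.135 FPKM with lenvatinib, against 0.309, 0.379 and 0.251 FPKM with DMSO. The exact two-sided permutation p was 0.1, the smallest possible, as for any gene whose groups do not overlap. When genes from 0.1 FPKM were admitted with a pseudocount of 0.1, 28 HOX genes were tested and 0 passed, against 1.71% of 15695 genes. There Hoxa4 had a log2 fold change of -0.51 (limma adjusted p = 0.257). Hoxa3, a thymus and parathyroid gene, had 0.940, 0.751 and 0.784 FPKM with lenvatinib, against 0.903, 0.910 and 0.921 FPKM with DMSO. Lenvatinib 1 lay above the DMSO range and the other lenvatinib libraries below it.

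Most of the remaining low genes were in cluster C, whose members pattern trunk and limb nerves and skeleton. Hoxc6 had 0.847, 0.374 and 0.494 FPKM with lenvatinib, against 0.785, 0.532 and 0.533 FPKM with DMSO. Hoxc8 had 0.219, 0.0429 and 0.0540 FPKM with lenvatinib, against 0.209, 0.158 and 0.161 FPKM with DMSO (exact two-sided permutation p = 0.4). In both, library 1 was the highest of its group and the groups overlapped. Cluster C summed to 2.89, 1.41 and 1.75 FPKM with lenvatinib, against 2.50, 2.16 and 1.90 FPKM with DMSO, and cluster D to 12.9, 10.9 and 11.4 FPKM with lenvatinib, against 12.4, 9.32 and 10.46 FPKM with DMSO. Both sums overlapped. In cluster D, Hoxd3 had 0.513, 0.379 and 0.774 FPKM with lenvatinib, against 0.544, 0.470 and 0.504 FPKM with DMSO. Hoxd11, a limb and kidney gene, had 0.231, 0.511 and 0.398 FPKM with lenvatinib, against 0.293, 0.293 and 0.370 FPKM with DMSO. The lenvatinib values of both genes spread to either side of the DMSO values. Hoxd1 was 0 in every lenvatinib library and 0.0141 FPKM in DMSO 1 alone, and Hoxd12 did not exceed 0.0505 FPKM with lenvatinib or 0.0104 FPKM with DMSO.

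The sum over a cluster's genes separated the groups for cluster A and not for cluster B. Cluster A summed to 36.4, 27.6 and 28.9 FPKM in lenvatinib 1 to 3, against 37.4, 45.0 and 44.8 FPKM in DMSO 1 to 3. Cluster B summed to 79.8, 78.1 and 81.8 FPKM with lenvatinib, against 79.3, 82.6 and 82.3 FPKM with DMSO. Every lenvatinib library was below every DMSO library in cluster A, by a narrow gap between lenvatinib 1 and DMSO 1. The separation rested on Hoxa10: without it cluster A summed to 24.5, 17.03 and 18.9 FPKM with lenvatinib, against 23.4, 25.3 and 25.2 FPKM with DMSO, and the groups overlapped. As a share of all HOX FPKM, cluster A was 24.8 ± 2.43% with lenvatinib and 31.0 ± 2.19% with DMSO, and cluster B was 64.2 ± 3.28% with lenvatinib and 59.6 ± 0.637% with DMSO (SD, n = 3 each). Shares of one total are not independent: a lower cluster A raises the share of cluster B, whose sums overlapped.

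By position, paralog groups 9 to 13 held 37.6 ± 2.01% of HOX FPKM with lenvatinib and 38.9 ± 1.64% with DMSO, a difference of -1.28 percentage points that is smaller than either SD. With GENCODE lengths that difference was -0.59 percentage points. With Hoxa10 left out of the HOX genes the sign turned: the share was 31.7 ± 2.45% with lenvatinib and 29.8 ± 0.306% with DMSO, and the groups overlapped. Groups 4 to 8 held 57.0 ± 2.01% with lenvatinib and 55.9 ± 1.37% with DMSO, and groups 1 to 3 held 5.41 ± 0.0145% with lenvatinib and 5.18 ± 0.475% with DMSO. The level-weighted mean paralog number was 7.18, 7.28 and 7.29 in lenvatinib 1 to 3, against 7.24, 7.38 and 7.41 in DMSO 1 to 3, and the groups overlapped. Among the posterior genes, paralog number 10 held 11.04 ± 0.611% of all HOX FPKM with lenvatinib and 15.2 ± 1.38% with DMSO. Number 9 held 24.3 ± 2.61% of all HOX FPKM with lenvatinib and 21.1 ± 0.166% with DMSO. Its share also rises when other genes fall, and its sums overlapped: 28.1, 30.07 and 32.3 FPKM with lenvatinib, against 27.67, 29.62 and 29.25 FPKM with DMSO. The ratio of Hoxa10 to Hoxb9 was 0.559, 0.422 and 0.365 in lenvatinib 1 to 3, against 0.659, 0.830 and 0.842 in DMSO 1 to 3. This ratio was lower in every lenvatinib library than in any DMSO library. Since the Hoxa10 groups were already apart and those of Hoxb9 overlapped, it largely restates the Hoxa10 difference and is no separate result. The ratio of Hoxa10 to its paralog Hoxd10 was 5.62, 5.70 and 5.495 in lenvatinib 1 to 3, against 5.54, 13.9 and 11.7 in DMSO 1 to 3, so DMSO 1 lay inside the lenvatinib range.

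**Figure D4:**
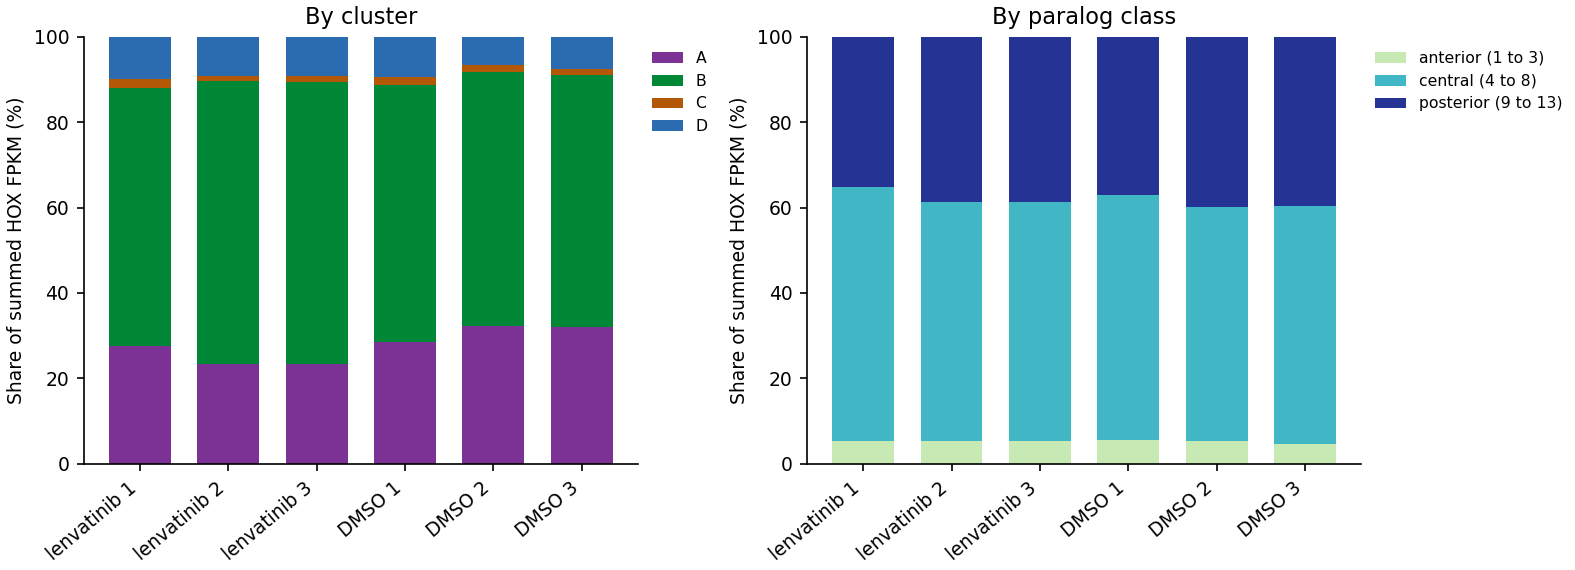
Share (%) of summed HOX FPKM per library by cluster and by paralog group, lenvatinib libraries left of DMSO libraries. The cluster A share is 23.3 to 27.6% with lenvatinib and 28.5 to 32.4% with DMSO, while the share of groups 9 to 13 overlaps at 35.3 to 38.8% with lenvatinib and 37.0 to 39.9% with DMSO.

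In the HOX genes DMSO 1 was closer to lenvatinib 1 than to the other DMSO libraries. Over the 20 tested genes, DMSO 1 differed from lenvatinib 1 by an SD of 0.12 on the log2 scale, and from DMSO 2 and 3 by 0.23 and 0.19. Over all genes tested the order was the reverse. There DMSO 1 differed from lenvatinib 1 by 0.39, and from DMSO 2 and 3 by 0.29 each.

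Genes that act on or with the HOX clusters were counted from lists. Of the TALE cofactors of HOX proteins, 0 of 7 tested passed, and Pknox1 had a log2 fold change of -0.37 (limma adjusted p = 0.136). Of the caudal and ParaHox genes, whose Cdx members activate HOX clusters, 0 of 2 tested passed. Cdx2, the intestinal master regulator, had 208, 216 and 215 FPKM with lenvatinib, against 210, 236 and 232 FPKM with DMSO (limma adjusted p = 0.446), and its groups overlapped. Cdx1 had 193.5, 190.5 and 192.1 FPKM with lenvatinib, against 189.9, 183.0 and 186.1 FPKM with DMSO (limma adjusted p = 0.609). Polycomb repressors (0 of 15), Trithorax activators (0 of 11), retinoic acid receptors and enzymes (0 of 10), and non-HOX neighbours of the clusters (0 of 10) gave no call in either direction.

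The noncoding genes in the clusters had 4 tested members and 0 calls, with a median log2 fold change of -0.34. Hoxaas3, antisense within cluster A, had 0.845, 1.69 and 1.39 FPKM with lenvatinib, against 2.99, 2.30 and 2.46 FPKM with DMSO (limma adjusted p = 0.107). Its groups did not overlap. Hoxaas3 shares 586 exon bases with Hoxa7 and 297 with Hoxa3. Since the strand setting is not given, reads in those bases cannot be told apart. Evx1, the gene beyond the 5′ end of cluster A and named after its values were seen, had 0.0362, 0.0443 and 0.107 FPKM with lenvatinib, against 0.201, 0.297 and 0.329 FPKM with DMSO. The exact two-sided permutation p of Evx1 was 0.1, the smallest possible, which groups that do not overlap always give.

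Genes that mark other positions along the gut included some that passed. Their lists were chosen with earlier results of these data known, and the number of all genes that passed depended on the setting, as given below. Of 11 tested intestinal segment transcription factors 3 were higher with lenvatinib and 0 lower, against 1.10% and 0.934% of all genes tested. The 3 were Nr1h4, the bile acid receptor (log2 fold change 0.79, limma adjusted p = 0.00539), Osr2 (1.19, limma adjusted p = 0.0130) and Isx, a regulator of intestinal vitamin A uptake (0.60, limma adjusted p = 0.0474). Isx lay just under the threshold of 0.05, and Hoxa10, at -0.65 (limma adjusted p = 0.0838), lay above it. Osr2 had 7.04, 8.58 and 9.55 FPKM with lenvatinib, against 2.96, 2.71 and 3.70 FPKM with DMSO.

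Of 8 tested small intestinal genes 7 passed as higher with lenvatinib, against 1.10% of all genes tested. Fabp6, an ileal bile acid carrier, had 161, 160 and 148 FPKM in lenvatinib 1 to 3, against 1.45, 2.28 and 2.27 FPKM in DMSO 1 to 3 (log2 fold change 5.73, limma adjusted p = 2.01e-05). All lenvatinib libraries were above all DMSO libraries. Defa24, Mmp7 and Lyz1, products of Paneth cells, were also among those that passed, and the whole list summed to 609 to 881 FPKM with lenvatinib and 418 to 552 FPKM with DMSO. Fabp2, the tested member that did not pass, was the largest part of that sum in every library. It had 302, 479 and 462 FPKM with lenvatinib, against 406, 535 and 540.5 FPKM with DMSO (log2 fold change -0.27, limma adjusted p = 0.444). The sum therefore does not represent the genes that passed. The large intestinal list had 0 of 6 calls. The part of these list levels in the HOX values was not tested.

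Cell type markers that moved with treatment stand beside cluster A. The fibroblast list had 4 of 6 genes lower with lenvatinib and 0 higher, against 0.934% and 1.10% of all genes tested. Col1a1 had a log2 fold change of -1.23 (limma adjusted p = 8.24e-04). The list summed to 298 to 360 FPKM with lenvatinib and 497 to 525 FPKM with DMSO. Smooth muscle markers gave 0 of 6 calls and summed to 1456 to 1770 FPKM with lenvatinib and 1381 to 1518 FPKM with DMSO. Colon epithelium (0 of 6), endothelium (0 of 3) and enteric neuron (0 of 3) lists gave no call, and the enteric glia list had 0 tested genes. The genes that passed were Col1a1, Col1a2, Col3a1 and Lum, which encode collagens and a collagen-binding proteoglycan. Dcn, another matrix proteoglycan, had 154, 96.8 and 99.8 FPKM with lenvatinib, against 119, 99.3 and 99.5 FPKM with DMSO (limma adjusted p = 0.735), and Pdgfra, a receptor of mesenchymal cells, also overlapped (limma adjusted p = 0.270). The part of these genes in the Hoxa10 values was not tested.

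**Figure D5:**
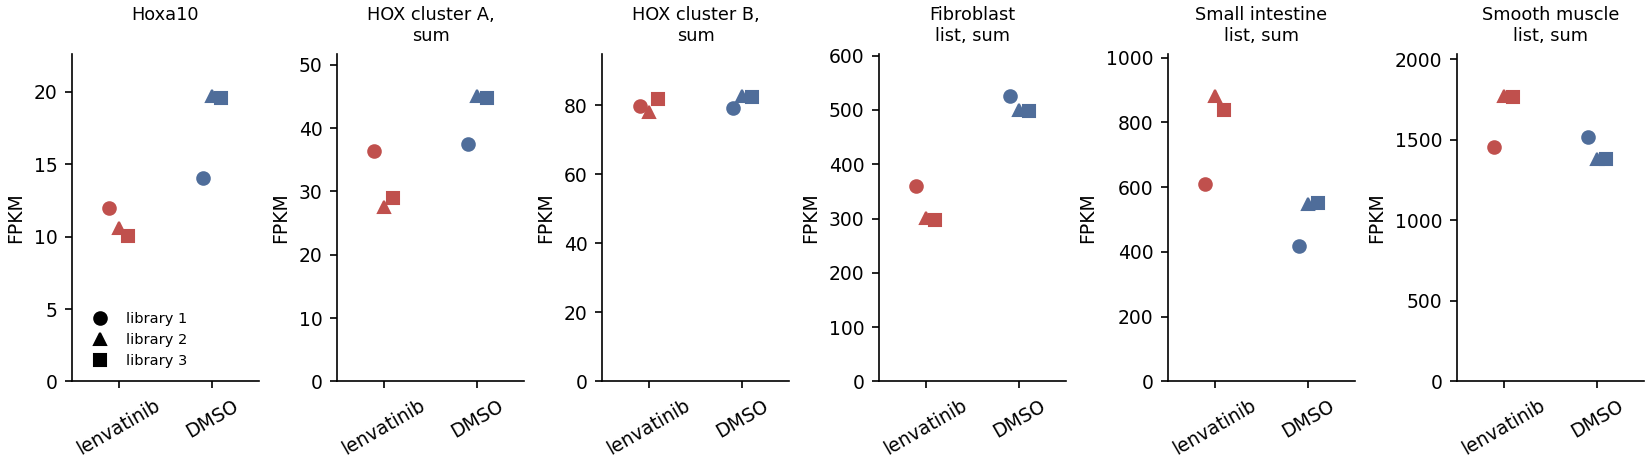
FPKM per library of Hoxa10, the sums of HOX clusters A and B, and the summed fibroblast, small intestine and smooth muscle lists, lenvatinib left of DMSO. Hoxa10, cluster A and the fibroblast list are lower in all lenvatinib libraries, the small intestine list is higher in all of them, and cluster B overlaps. The largest part of the small intestine sum is Fabp2, which did not pass.

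Reads could be shared between paralogs, because the homeobox is conserved. Between transcripts of tested genes of different clusters (135 pairs in GENCODE M21 on GRCm38), the longest identical run had a median of 16 bases and 9 pairs reached at least 30. The longest run of Hoxa10 with a gene of another cluster was 21 bases. Hoxa10, Hoxb6, Hoxb8 and Hoxb9 share no exon bases with another gene in the table, whereas 11 of the 36 do, 9 of them with an antisense gene.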

How the data were processed

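RNA from colon was sequenced in 6 libraries, 3 with lenvatinib and 3 with DMSO, from total RNA, per the labels' protocols. The deposited FPKM values were computed by the authors; HTSeq and the build GRCm39 are named in the submitters' processing notes. The aligner, annotation, strand setting and read length are not given in the sources at hand. All 6 columns were used.

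From the deposited FPKM, the fewest whole reads that give each gene's values were recovered within 0.01 reads, for all 21859 genes above 0 in at least 2 libraries. A common factor of a gene's reads cannot be seen, and intervals from such counts cover counting error only. Genes averaging 1 FPKM or more (11774) were tested on log2(FPKM + 1), pseudocount 1, with limma 3.58.1 in R 4.3.3, trended and robust prior, two-sided, with Benjamini-Hochberg adjustment over all genes and a threshold of 0.05. This scale understates changes of low genes. The test was first run on simulated data with independent libraries. The shifts there were larger than that of any tested HOX gene and lay in genes well above the filter. That run cannot show how often changes of the size seen in HOX genes are found. Single values were also compared by exact permutation over the libraries. Replicate numbers are shared by the groups, but the labels do not state that they pair libraries, so no block was used. Whether libraries came from separate mice is not stated beyond the label of biological replicates, so p-values reflect only how these libraries vary, which may be technical.

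Values are printed for every HOX gene with a mean of at least 1 FPKM and for paralog number 13. From each list, up to 4 genes by unadjusted p could be named, with Cdx1, Cdx2 and Fabp6 always named. Fabp2, Dcn and Pdgfra were named besides, as list members that did not pass. Some items are not reported here. Prac1 was not analysed here. The members and lists were chosen with earlier results of these data known. Promoters came from RefSeq on GRCm38.p6 and exons from GENCODE M21 on GRCm38, matched by symbol, and no coordinate of the authors' build is used. Alternatives covered the pseudocount, the filter, scaling, the prior, the block, averaging libraries 2 and 3, leaving out each library and, added later, leaving out Hoxa10 from the shares.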

Additional observations from a re-analysis of the deposited data

How the results depend on the processing

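The HOX genes that passed numbered 0 in the analysis as reported and in every alternative except leaving out a library, where they ranged from 0 to 8. They were 8 of 20 without lenvatinib 1 (against 38.0% of all genes), namely Hoxa5, Hoxa6, Hoxa9, Hoxa10, Hoxa11, Hoxb2, Hoxb3 and Hoxb8, and 1 without DMSO 1, which was Hoxa10. The number of all genes that passed was 239, against 140 with no filter on low values, 29 with the replicate block and 4 with libraries 2 and 3 averaged, and it ranged from 44 to 4456 when a library was left out. The block left 0 HOX genes called, and deviations of same-numbered libraries correlated at -0.20 to -0.15. Because libraries 2 and 3 of each group are so alike, these correlations cannot show whether the numbers pair libraries. Over 15 settings, 280 of 300 single-gene values kept their direction and side of the threshold, 9 came past it and 11 changed sign, the last in 4 genes with fold changes near 0. With median-ratio scaling the log2 fold change was 0.042 for Hoxb5, 0.040 for Hoxb6 and 0.023 for Hoxd9, and with libraries 2 and 3 averaged it was -0.0103 for Hoxd10. With a library left out, Hoxb5 ranged from -0.0754 to 0.0285, Hoxb6 from -0.082 to 0.0131, Hoxd9 from -0.13 to 0.051, Hoxd10 from -0.0699 to 0.21 and Hoxa10 from -0.80 to -0.57. The cause was not tested. With a library left out, the difference in the share of groups 9 to 13 ranged from -2.22 to -0.12 percentage points, but with Hoxa10 left out, an alternative chosen after seeing the data, it was 1.86. Genes of paralog number 13 rest on few reads, so only large differences could have been seen there.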
